A study of Mus musculus with 14 samples.

Results

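The 10 genes described here encode enzymes, a helper protein and a receptor of the prostaglandin and leukotriene pathways: Ptgs1, Ptgs2, Ptges, Ptgis, Ptgds, Hpgds, Pla2g4a, Alox5, Alox5ap and Ptger4. They were listed by name for their place in these pathways, with earlier results of these data known, and all 10 were found among the 55487 genes of the count tables. RNA sequencing of 14 mouse bone marrow libraries was analysed. LSK cells (Lin- Sca1+ c-kit+, enriched in stem and multipotent cells) and LK cells (Lin- c-kit+, myeloid progenitors, labelled MP(LK)) were sorted from C57BL/6 mice whose blood cells carried 1 Jak2V617F knock-in allele (Jak2 VF/+), in the PBS groups as in the IL-1β groups. Per the study's methods, these mice were lethally irradiated C57BL/6 hosts given marrow in which Mx1Cre, a Cre active in blood cells and other tissues after pI-pC injection, had switched on the allele before transplantation, so that the host's own stroma did not carry it. They received PBS or IL-1β at 0.5 μg per dose, 3 doses per week for 16 weeks by intraperitoneal injection, and each population gave 3 PBS and 2 IL-1β libraries. Cultures labelled MSC (mesenchymal stromal cells) were grown for 21 days from the marrow of C57BL/6 mice that the methods describe as wild type, and were exposed to PBS or to IL-1β at 5 ng/ml for 72 h, with 2 libraries each. Mice of 6 to 8 weeks were used, an age stated for all experiments together and not by group. It is not the age at sampling of the LSK and LK cells, which were sorted after the 16 weeks of injections. The labels do not say whether the MSC libraries came from separate cultures, so their p-values measure only the spread between those libraries.

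Prostaglandins and leukotrienes are short-lived lipid signals made from arachidonic acid. Cytosolic phospholipase A2 (Pla2g4a) frees arachidonic acid from membranes. The cyclooxygenases, the constitutive form encoded by Ptgs1 and the inducible form encoded by Ptgs2, turn it into prostaglandin H2, from which terminal synthases make prostaglandin E2 (Ptges), prostacyclin (Ptgis) or prostaglandin D2 (Ptgds, the lipocalin type, and Hpgds, the hematopoietic type). In the other branch, 5-lipoxygenase (Alox5), aided by the 5-lipoxygenase-activating protein (Alox5ap), starts leukotriene synthesis. Ptger4 encodes EP4, a receptor for prostaglandin E2. In marrow, prostaglandin E2 is known to act on hematopoietic stem cells, macrophages and mast cells are known sources of these lipids, and Ptgs2 is a classical gene induced by IL-1.

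The libraries held 4393233 to 30871055 counted read pairs. Markers of LSK and LK cells were as labelled: all 8 genes of a stem and progenitor list had over 3 counts in every LSK and LK library under PBS, and their summed TPM (read pairs corrected for gene length and scaled to 1000000 per library) lay between 658 and 1082 in LSK and between 113 and 253 in LK. The cultures labelled MSC expressed mesenchymal genes, with a summed TPM of 1102 to 1999 under PBS over 12 genes, but Lepr, a marker of marrow stroma, was at 0 in both PBS libraries. Their macrophage markers were far higher: all 12 (Lyz2, Cd68, Csf1r, Adgre1, C1qa and others) had over 3 counts in every MSC library, and they summed to 26953 and 37176 TPM under PBS and to 70581 and 70792 under IL-1β. Xist was counted 325, 2103 and 535 times in 3 of the MSC libraries and 0 times in PBS replicate 3, while transcripts of Y-linked genes were counted 612 to 4009 times in all 4. The name MSC is kept below as a label. In LK PBS replicate 1, genes under 200 bases held 36.3% of all TPM, against 1.25% to 12.1% in the other libraries, which lowers the TPM of other genes there and does not enter the tests on counts.

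**Figure D1:**
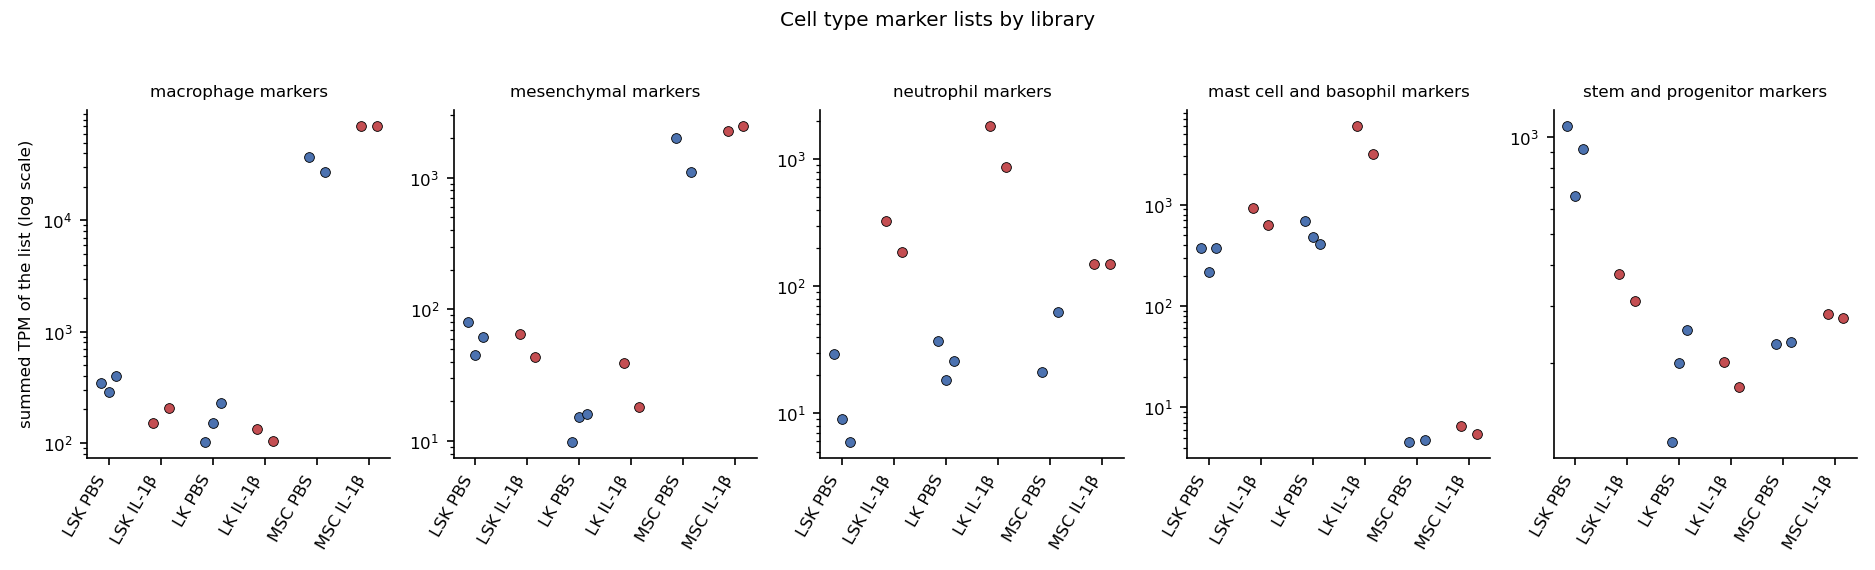
Summed TPM (log axis) of 5 lists of cell type markers in each library, blue for PBS and red for IL-1β. The 4 MSC libraries carry the highest macrophage sums, 26953 to 70792, and the 2 LK IL-1β libraries carry the highest neutrophil and mast cell and basophil sums.

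Under PBS the 10 genes fell into different patterns by population. Of the cyclooxygenases, Ptgs1 was counted in every library, whereas Ptgs2, Ptges and Ptgis were counted mainly in MSC. The 2 leukotriene genes parted: Alox5ap was abundant everywhere, and Alox5 was low in MSC. Levels in MSC were set beside those of the sorted cells as a description only, since the cultures came from other mice.

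Pla2g4a, which supplies the substrate of both branches, had 32.9 to 54.8 TPM in the 3 LSK PBS libraries, 10.3 to 21.9 TPM in the 3 LK PBS libraries and 6.62 and 9.92 TPM in the 2 MSC PBS libraries. The 3 ranges did not overlap. Ptgs1 had 20.6 to 37.5 TPM in LSK, 17.0 and 30.0 TPM in MSC and 2.58 to 8.82 TPM in LK, so that LSK and MSC overlapped and LK lay below both. Ptgs2 had 5.58 and 5.99 TPM in MSC. In the sorted cells it gave 6, 0 and 2 counts in LSK and 0, 11 and 0 counts in LK, so that it was at 0 in 3 of these 6 libraries.

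Each terminal synthase among the 10 genes had its highest levels in a single population. Ptges had 8.33 and 9.67 TPM in MSC, against at most 0.994 TPM in LSK and 0.174 TPM in LK. Ptgis was counted 16 and 40 times in MSC (3.19 and 3.37 TPM) and 0 times in all 10 libraries of sorted cells, a count of 0 that allows up to 3 counts in each. Hpgds had 107 and 118 TPM in MSC, 0.715 to 1.58 TPM in LSK and 0.0742 to 0.413 TPM in LK, and these ranges did not overlap. Ptgds was highest in LSK, with 2.0 to 5.15 TPM in LSK, 0.107 to 0.416 TPM in LK and 0 counts in all 4 MSC libraries. The prostaglandin D2 synthases parted in the cultures, where the hematopoietic type was highest and the lipocalin type was at 0. Between the sorted populations both lay higher in LSK than in LK.

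Alox5ap was the most abundant of the 10 genes per length in every group, at 454 and 516 TPM in MSC, 310 to 415 TPM in LSK and 73.1 to 166 TPM in LK. Alox5, the enzyme that Alox5ap assists, had 10.1 to 13 TPM in LK and 9.66 to 14.5 TPM in LSK, which overlapped, and 0.526 and 0.623 TPM in MSC, on 5 and 10 counts. Ptger4 had 9.60 to 20.0 TPM in LSK, 7.05 to 12.8 TPM in LK and 11.8 and 13.2 TPM in MSC. The Ptger4 ranges overlapped throughout, and the order of its medians changed when genes under 200 bases were left out of the TPM, an alternative chosen after seeing the data. For the other 9 genes that order stayed the same.

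**Figure D2:**
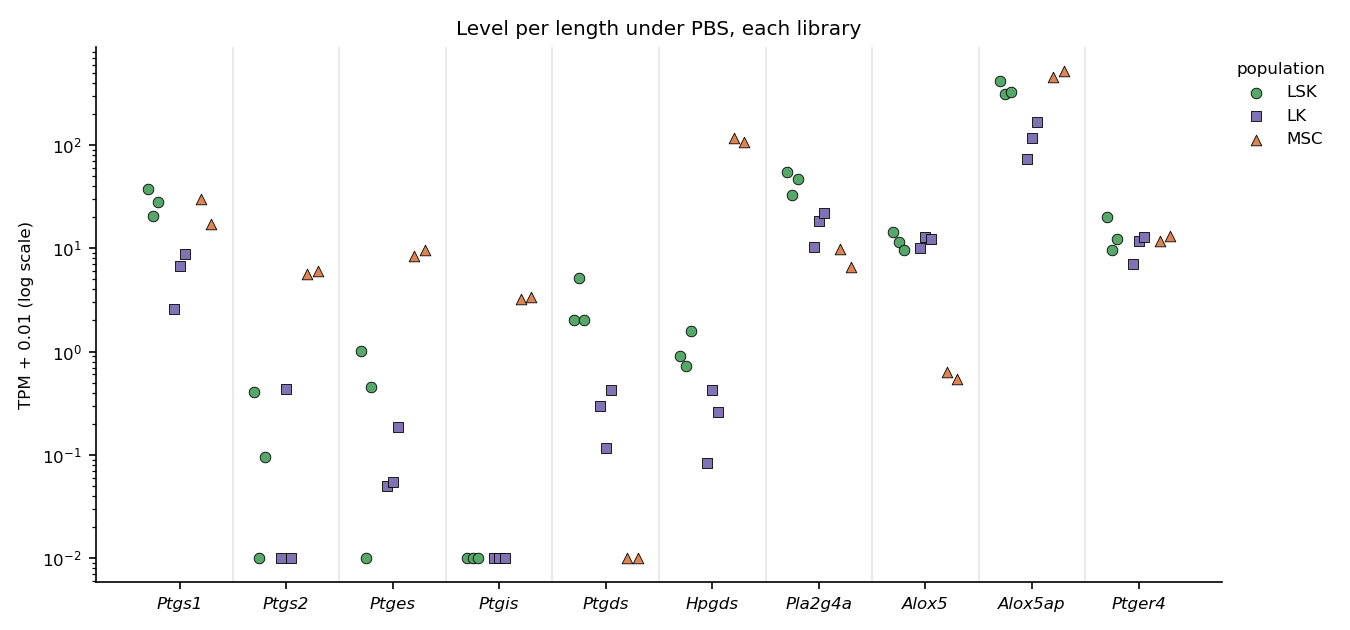
TPM of the 10 genes in every PBS library (log axis, with 0.01 added so that libraries at 0 are drawn at the bottom); circles are LSK, squares LK and triangles MSC. Alox5ap is highest, between 73.1 and 516 TPM, Ptgis is at 0 in LSK and LK, and Ptgds is at 0 in MSC.

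The difference between the 2 sorted populations under PBS was tested on the counts with edgeR over all 10 LSK and LK libraries. The thresholds for a call were an adjusted p below 0.05 and a log2 fold change of more than 0.5 in size, which 19.4% of the 13839 genes tested passed toward LSK and 12.4% toward LK. Of the 10 genes, 8 could be tested, 4 were called higher in LSK (Ptgs1, Ptgds, Pla2g4a and Alox5ap) and 0 lower. At an unadjusted p under 0.05, 5 of the 8 passed, beside 42.9% of all genes, and 5 of the 8 were higher in every LSK library than in every LK library and 0 lower, beside 26.2% and 21.8% of all genes. The median log2 fold change of the 8 was 1.64, beside 0.09 over all genes tested. Ptgds had 11, 37 and 17 counts in LSK PBS and 3 or fewer in every other sorted library. It passed the filter on low counts, which decides the genes tested, only through the group where it was high. Hpgds, with 9 to 52 counts in LSK libraries and 1 to 15 in LK libraries, passed it only through LSK. Their directions are therefore no support for the non-overlap count, the count at unadjusted p or the median. That of Ptgds is also no support for the call count.

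Ptgs1 reached 36.7, 27.0 and 32.2 CPM (read pairs per 1000000, scaled over the sorted cells) in LSK and 5.03, 7.68 and 10.8 CPM in LK, a log2 difference of 2.03 (SE 0.28, edgeR adjusted p = 0.000272). All LSK values lay above all LK values. Alox5ap reached 149, 149 and 139 CPM in LSK and 52.2, 48.0 and 74.0 CPM in LK (log2 1.33, SE 0.20, edgeR adjusted p = 0.000538). Pla2g4a reached 88.2, 71.0 and 89.7 CPM in LSK and 33.0, 34.2 and 44.1 CPM in LK (log2 1.16, SE 0.18, edgeR adjusted p = 0.000680). None of these 3 calls was lost under any of the 18 alternatives. Ptgds rested on 11, 37 and 17 counts in LSK and 3, 1 and 3 counts in LK (log2 3.18, SE 0.92, 95% interval 1.19 to 5.18, edgeR adjusted p = 0.0200). The Ptgds call was lost in 6 of 17 alternatives, over which adjusted p ran from 0.0120 to 0.0896. With LSK and LK libraries of the same number treated as pairs, it was lost (log2 3.02, edgeR adjusted p = 0.0521). It was also lost without the filter on low counts. The remaining losses came without LK PBS replicate 1 or 2 and without LK IL-1β replicate 1 or 2.

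The other 4 did not pass with edgeR. Hpgds had a log2 difference of 1.95 (95% interval 0.34 to 3.56, edgeR adjusted p = 0.0622) on 19, 20 and 52 counts in LSK and 3, 15 and 7 counts in LK. It was called with DESeq2, with limma-voom and without LSK PBS replicate 2, with adjusted p between 0.0347 and 0.214 over 17 alternatives. For Alox5 it was -0.30 (95% interval -0.85 to 0.25), for Ptger4 0.13 (-0.33 to 0.58) and for Ptges 2.06 (-0.73 to 4.85). Between the partners of the leukotriene branch, Alox5ap was called higher in LSK and Alox5 was not, and whether the 2 differed from each other was not tested.

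In MSC, RNA of genes at each step from membrane lipid to prostaglandin E2 and its receptor was higher under IL-1β. Pla2g4a, Ptgs1, Ptgs2, Ptges and Ptger4 all rose, by 1.80-fold to 2.86-fold, whereas the prostacyclin and prostaglandin D2 synthases Ptgis and Hpgds lay lower under IL-1β without passing the test. Of the 10 genes 9 could be tested (Ptgds was at 0), 5 were called higher and 0 lower. Over all 13239 genes tested, 7.14% were called higher and 4.31% lower. The median log2 fold change of the 9 genes was 0.93, beside 0.00 over all genes. Among the 9, Alox5 passed the filter on low counts only through IL-1β, so its direction is no support for this median.

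The sequences before the starts of these 5 genes are shown because their RNA rose together. They are the 250 bases upstream of the RefSeq start on GRCm38.p6, written 5′ to 3′ on the gene's strand, and capitals mark a match to the C/EBP motif TTNNGNAA on either strand. Ptgs2 (chr1:150099781-150100030, plus strand) held the motif at -69 to -62, where it reads the same on both strands, and at -25 to -18, counted from -1 at the base before the start.
Ptgs2: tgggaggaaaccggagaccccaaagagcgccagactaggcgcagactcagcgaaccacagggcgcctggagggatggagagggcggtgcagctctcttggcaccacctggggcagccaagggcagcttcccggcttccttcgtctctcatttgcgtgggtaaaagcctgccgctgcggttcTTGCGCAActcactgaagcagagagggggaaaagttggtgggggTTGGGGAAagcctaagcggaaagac
Ptges (chr2:30903298-30903547, minus strand) held 1 match, at -198 to -191; this RefSeq start lies inside the gene as the count tables define it.
Ptges: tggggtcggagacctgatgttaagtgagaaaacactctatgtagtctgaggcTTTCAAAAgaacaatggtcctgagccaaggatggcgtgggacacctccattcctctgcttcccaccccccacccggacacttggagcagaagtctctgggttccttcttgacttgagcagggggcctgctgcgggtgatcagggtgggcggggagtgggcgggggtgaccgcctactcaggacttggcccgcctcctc
Pla2g4a (chr1:149961291-149961540, minus strand, the first of 2 RefSeq starts) held 2 overlapping matches between -112 and -104.
Pla2g4a: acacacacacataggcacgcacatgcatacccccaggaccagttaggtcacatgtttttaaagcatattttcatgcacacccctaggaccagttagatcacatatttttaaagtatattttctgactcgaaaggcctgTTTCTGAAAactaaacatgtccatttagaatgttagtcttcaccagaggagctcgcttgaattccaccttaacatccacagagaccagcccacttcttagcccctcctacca
Ptgs1 (chr2:36230176-36230425, plus strand) and Ptger4 (chr15:5244188-5244437, minus strand) held no match.
Ptgs1: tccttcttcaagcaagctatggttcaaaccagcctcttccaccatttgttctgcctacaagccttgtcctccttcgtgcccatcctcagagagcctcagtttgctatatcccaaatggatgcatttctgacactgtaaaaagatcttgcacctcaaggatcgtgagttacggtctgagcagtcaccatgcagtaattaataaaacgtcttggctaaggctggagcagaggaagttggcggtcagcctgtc
Ptger4: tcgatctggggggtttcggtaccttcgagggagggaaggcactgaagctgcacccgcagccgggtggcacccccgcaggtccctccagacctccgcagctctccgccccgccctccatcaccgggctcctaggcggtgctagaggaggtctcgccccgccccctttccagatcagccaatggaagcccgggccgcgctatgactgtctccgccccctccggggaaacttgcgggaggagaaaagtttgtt
Of 32851 mouse promoter windows of this length, 36.8% held the C/EBP motif. The NF-κB consensus (both strands) was found in 7.25% of windows, the AP-1 motif TGANTCA in 6.75%, the half-site TGACG of the cAMP response element in 17.8% and TATAAA in 12.4%, and none of these was found in the 5 windows printed here. Among the 8 genes with a window, Ptgds held the NF-κB consensus, the AP-1 motif and a C/EBP match, Hpgds held 2 C/EBP matches, and Alox5 held no match to any of the 5 motifs. A match is a letter pattern and not a site shown to be bound.

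Ptgs2, the inducible cyclooxygenase (chromosome 1, 150100031 to 150108227, plus strand, GRCm38), gave 8.34 and 9.56 CPM under PBS and 29.5 and 21.9 CPM under IL-1β. Its log2 fold change was 1.52 (SE 0.21, edgeR adjusted p = 0.0120), and both IL-1β values exceeded both PBS values. Ptgs1, the constitutive form (chromosome 2, 36230426 to 36252272, plus strand), gave 38.0 and 23.0 CPM under PBS and 68.2 and 58.3 CPM under IL-1β. Its log2 fold change of 1.09 (SE 0.25) passed narrowly (edgeR adjusted p = 0.0482) and the call was lost in 5 of 11 alternatives, with adjusted p between 3.11e-13 and 0.391. Per length, Ptgs1 remained above Ptgs2 in the IL-1β libraries, at 43.6 and 52.6 TPM against 13.9 and 19.3 TPM.

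Ptges, the inducible prostaglandin E2 synthase (chromosome 2, 30889471 to 30929863, minus strand), gave 10.7 and 13.3 CPM under PBS and 22.3 and 21.2 CPM under IL-1β (log2 0.85, SE 0.17, edgeR adjusted p = 0.0322). Pla2g4a (chromosome 1, 149829618 to 149961290, minus strand) gave 20.7 and 14.8 CPM under PBS and 34.5 and 36.9 CPM under IL-1β (log2 1.03, SE 0.18, edgeR adjusted p = 0.0246). Ptger4 (chromosome 15, 5206661 to 5244187, minus strand) gave 25.7 and 30.5 CPM under PBS and 54.2 and 53.7 CPM under IL-1β (log2 0.93, SE 0.13, edgeR adjusted p = 0.0117). In each of the 3 genes the treatments did not overlap, as in 31.3% of all genes tested for higher values under IL-1β. Ptger4 had the smallest standard error of the 5.

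The prostaglandin D2 and prostacyclin synthases were not called. Hpgds (chromosome 6, 65117293 to 65144908, minus strand) gave 246 and 240 CPM under PBS and 206 and 183 CPM under IL-1β (log2 -0.32, SE 0.11, edgeR adjusted p = 0.116). Ptgis (chromosome 2, 167191805 to 167240604, minus strand) gave 2.67 and 3.01 CPM under PBS and 1.48 and 2.12 CPM under IL-1β, on 16 to 45 counts (log2 -0.70, SE 0.39, edgeR adjusted p = 0.291). Both lay lower in each IL-1β library than in each PBS library, as did 29.8% of all genes, and neither passed the test.

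In the leukotriene branch, Alox5ap gave 210 and 256 CPM under PBS and 292 and 307 CPM under IL-1β (log2 0.36, SE 0.13, edgeR adjusted p = 0.132). Alox5 gave 0.834 and 0.753 CPM under PBS and 2.46 and 1.94 CPM under IL-1β (log2 1.49, SE 0.45, edgeR adjusted p = 0.0881), on 5 and 10 counts under PBS. Neither was called. In both genes all values under IL-1β were above those under PBS, as in 31.3% of all genes tested. Alox5, with 22 and 75 counts under IL-1β, passed the filter on low counts only through IL-1β, so its direction is no support for a rise.

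Of the macrophage list, 8 of 12 genes were also called higher in these MSC libraries, with a median log2 fold change of 1.11 and a summed TPM of 26953 and 37176 under PBS and of 70581 and 70792 under IL-1β. Of the mesenchymal list 1 of 11 genes tested was called higher, with a median of 0.34 (summed TPM 1102 and 1999 under PBS, 2283 and 2481 under IL-1β). The part of these cells in the values of the prostaglandin genes was not tested. Each call rested on 2 libraries a group: without IL-1β replicate 1, and likewise without IL-1β replicate 2, 0 of the 9 genes were called, with log2 fold changes that kept their sign.

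In LK cells the genes that rose were Ptgs1 and the 2 leukotriene genes. Ptgs1 was 5.41-fold higher, Alox5ap 2.72-fold and Alox5 2.60-fold. Of the 10 genes 5 could be tested, 3 were called higher and 0 lower, and at an unadjusted p under 0.05 4 of the 5 passed, beside 24.7% of all genes. Over all 12835 genes tested 6.77% were called higher and 2.57% lower. The median log2 fold change of the 5 genes was 1.38, beside -0.03 over all genes.

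Ptgs1 gave 5.01, 7.66 and 10.7 CPM under PBS in LK and 50.0 and 34.7 CPM under IL-1β (log2 2.44, SE 0.31, edgeR adjusted p = 0.00493). Both IL-1β values exceeded every PBS value. Alox5ap, the activating protein (chromosome 5, 149264767 to 149288153, plus strand), gave 52.0, 47.8 and 73.8 CPM under PBS and 181 and 133 CPM under IL-1β (log2 1.44, SE 0.21, edgeR adjusted p = 0.00933). Alox5 (chromosome 6, 116410077 to 116461178, minus strand) gave 20.8, 15.5 and 15.9 CPM under PBS and 57.9 and 32.2 CPM under IL-1β (log2 1.38, SE 0.26, edgeR adjusted p = 0.0169). IL-1β replicate 1 was the higher of the 2 in all 3 genes.

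Pla2g4a gave 32.8, 34.1 and 43.9 CPM under PBS and 48.4 and 52.1 CPM under IL-1β, higher in both IL-1β libraries, as were 23.5% of all genes, without passing the test (log2 0.44, 95% interval 0.08 to 0.80, edgeR adjusted p = 0.123). Ptger4 gave 22.5 to 26.6 CPM under PBS and 26.8 and 25.7 CPM under IL-1β (log2 0.12, 95% interval -0.23 to 0.47). Ptgs2 was counted 0, 11 and 0 times under PBS and 0 and 4 times under IL-1β, Ptges 1, 1 and 3 times against 8 and 3 times, Hpgds 3, 15 and 7 times against 3 and 1 times, and Ptgds 3 times or fewer in every library. These 4 genes were too low to be tested in LK, as was Ptgis at 0, so a difference was not tested. The counts come from libraries of unlike depth. Mean CPM under PBS and IL-1β was 0.115 and 0.771 for Ptges, 0.189 and 0.321 for Ptgs2, 0.168 and 0.213 for Ptgds, and 0.503 and 0.279 for Hpgds.

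Markers of maturing cells moved in both directions in the same LK libraries. The neutrophil list summed to 18.2 to 37.0 TPM under PBS and to 867 and 1831 TPM under IL-1β, with Ly6g at 0 in every library, and the mast cell and basophil list to 406 to 688 TPM under PBS and to 3189 and 6015 TPM under IL-1β. Of the genes tested, 4 of 8 neutrophil genes and 4 of 8 mast cell and basophil genes were called higher, with median log2 fold changes of 4.36 and 2.28. The erythroid list summed to 5971 to 8468 TPM under PBS and to 4373 and 5056 TPM under IL-1β, with 5 of 8 genes called lower and a median log2 fold change of -0.87. Their part in the Ptgs1, Alox5 and Alox5ap values was not tested, and in bulk RNA fewer cells of a type and less RNA per cell cannot be told apart. The 3 calls were lost without IL-1β replicate 1 (Ptgs1 log2 2.14, edgeR adjusted p = 0.0899 over a range of 1.85e-28 to 0.0899), and that of Alox5 also without PBS replicate 2.

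In LSK cells 0 of the 7 genes tested were called in either direction, beside 0.32% of the 13132 genes tested that were called higher and 0.312% lower. At an unadjusted p under 0.05, Alox5ap and Alox5 passed, both toward higher values, beside 18.5% of all genes in either direction. With DESeq2, 1 of the 7, Alox5ap, was called.

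Alox5ap gave 143, 150 and 140 CPM under PBS in LSK and 206 and 274 CPM under IL-1β (log2 0.73, SE 0.23, edgeR adjusted p = 0.159). Alox5 gave 14.5, 16.0 and 11.9 CPM under PBS and 25.3 and 24.3 CPM under IL-1β (log2 0.81, SE 0.33, edgeR adjusted p = 0.235). Ptgs1 gave 35.5, 27.3 and 32.3 CPM under PBS and 42.3 and 46.1 CPM under IL-1β (log2 0.48, 95% interval -0.12 to 1.07, edgeR adjusted p = 0.359). In these 3 genes both IL-1β values lay above all PBS values, as in 18.2% of all genes tested.

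Pla2g4a had a log2 fold change of 0.27 (95% interval -0.29 to 0.84) and Ptger4 of 0.05 (-0.64 to 0.74) in LSK. The prostaglandin D2 synthases were low: Ptgds (chromosome 2, 25466709 to 25470046, minus strand) gave 11, 37 and 17 counts under PBS and 3 and 2 counts under IL-1β (log2 -1.86, SE 1.24, edgeR adjusted p = 0.445), and Hpgds gave 19, 20 and 52 counts against 10 and 9 counts (log2 -0.24, SE 0.94). Here Ptgds passed the filter on low counts only through PBS, so its direction is no support for a fall. Ptgs2 was counted 6, 0 and 2 times under PBS and 7 and 2 times under IL-1β, and Ptges 13, 0 and 9 times against 0 and 1 times; both were too low to be tested, and Ptgis was at 0. Stem and progenitor markers summed to 658 to 1082 TPM in LSK under PBS and to 310 and 375 TPM under IL-1β, and mast cell and basophil markers to 217 to 375 TPM and 631 and 937 TPM. Neutrophil markers summed to 5.91 to 29.4 TPM under PBS and to 186 and 324 TPM under IL-1β, with 1 of 8 tested called higher, a median log2 fold change of 3.72 and Ly6g at 0 in every LSK library. The part of these cells in the LSK values was not tested.

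An interaction term over the 10 sorted libraries asked whether IL-1β moved a gene differently in LSK than in LK; 8 of the 10 genes could be tested and 0 were called, beside 0.00723% and 0.0217% of the 13839 genes called in the positive and negative directions. At an unadjusted p under 0.05, Ptgs1, Alox5ap and Ptges passed, all with a negative difference, beside 14.2% of all genes in either direction. The difference in the Ptgs1 response, LSK minus LK, was -2.0 on the log2 scale (95% interval -2.93 to -1.07, unadjusted p = 0.000525 from edgeR, adjusted p = 0.129). Ptgs1 was called with DESeq2 (adjusted p = 0.00396), without the filter on low counts (adjusted p = 0.00149) and without LSK PBS replicate 2 (adjusted p = 0.0404). Over all 18 alternatives its adjusted p ran from 0.00149 to 0.762 and its difference from -2.29 to -1.67, and it was 0.0705 with same-numbered LSK and LK libraries paired. On the scale common to both populations, Ptgs1 under IL-1β stood at 41.2 and 45.6 CPM in LSK and at 50.1 and 34.7 CPM in LK, which overlapped, while the PBS values given above did not. The difference in response was -0.74 for Alox5ap (95% interval -1.43 to -0.06, edgeR adjusted p = 0.321) and -0.60 for Alox5 (-1.47 to 0.27). Ptges had the widest interval (-10.1 to -0.01, edgeR adjusted p = 0.350), on 13 counts or fewer in every library, and Ptgds, Hpgds, Pla2g4a and Ptger4 had intervals that included 0.

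**Figure D3:**
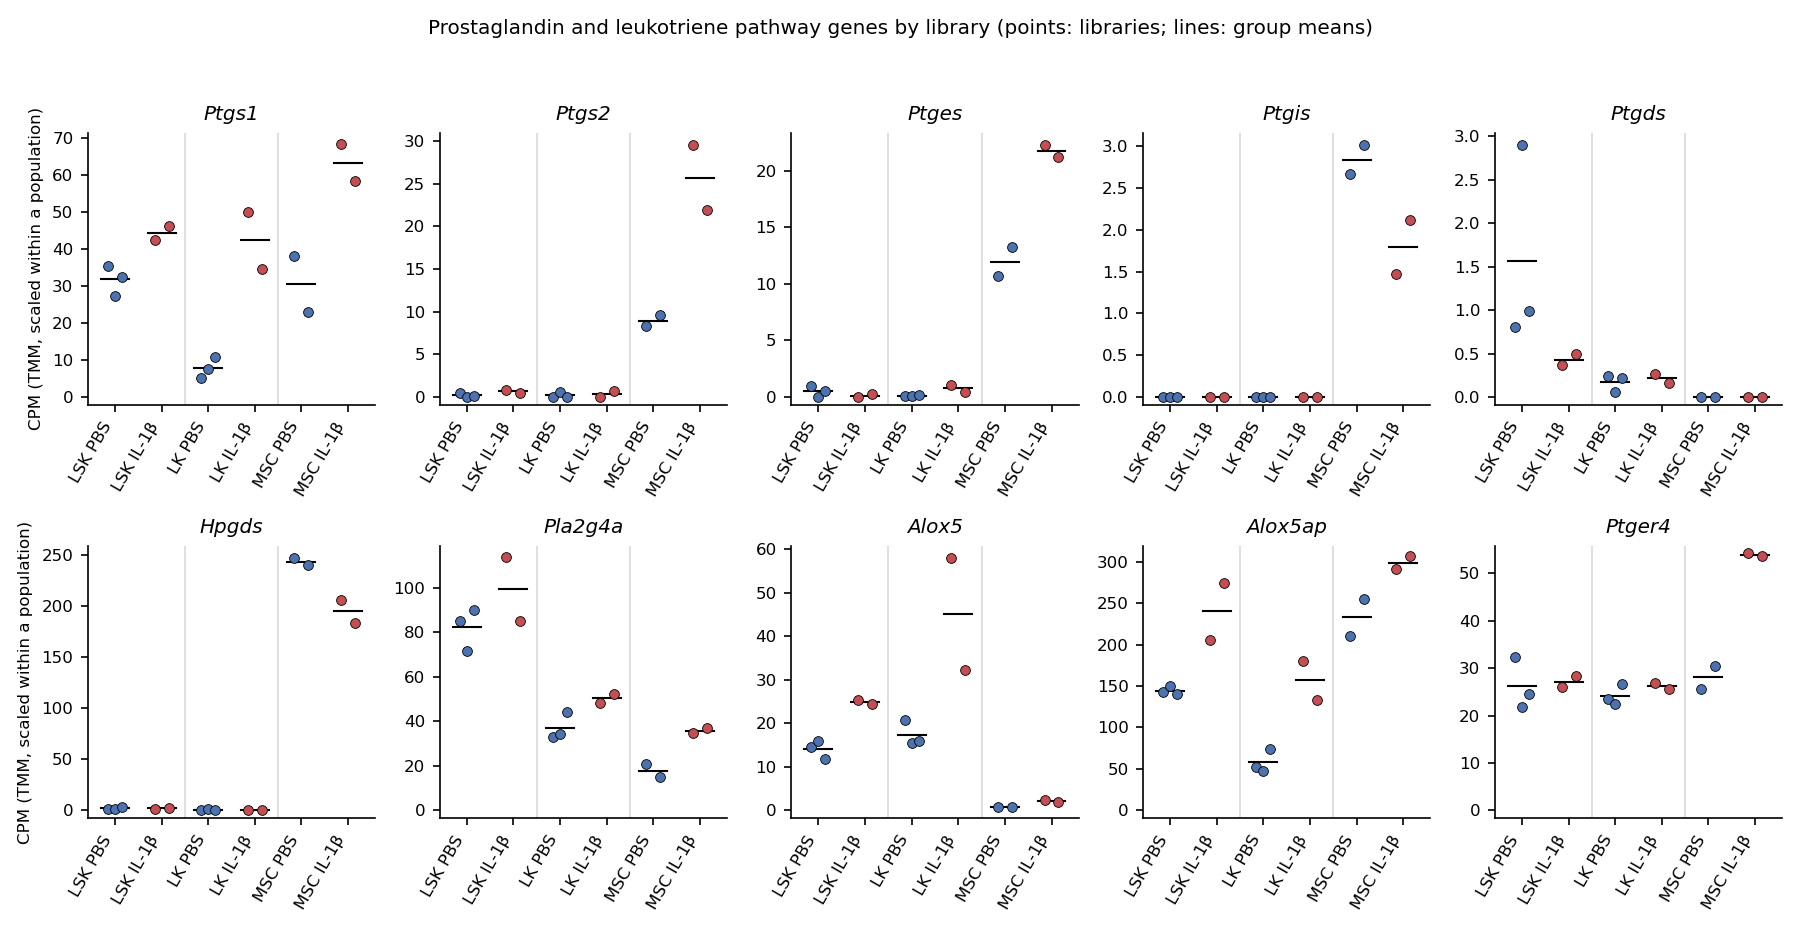
CPM of each of the 10 genes in every library (points) with the group mean (line), blue for PBS and red for IL-1β, on a linear axis per gene and scaled within each population. Ptgs1 lies between 5.01 and 10.7 CPM in LK PBS and at 34.7 and 50.0 CPM in LK IL-1β. Ptgs1, Ptgs2, Ptges, Ptgis, Hpgds, Alox5ap and Ptger4 are drawn highest in MSC, but the values are not scaled across populations.

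**Figure D4:**
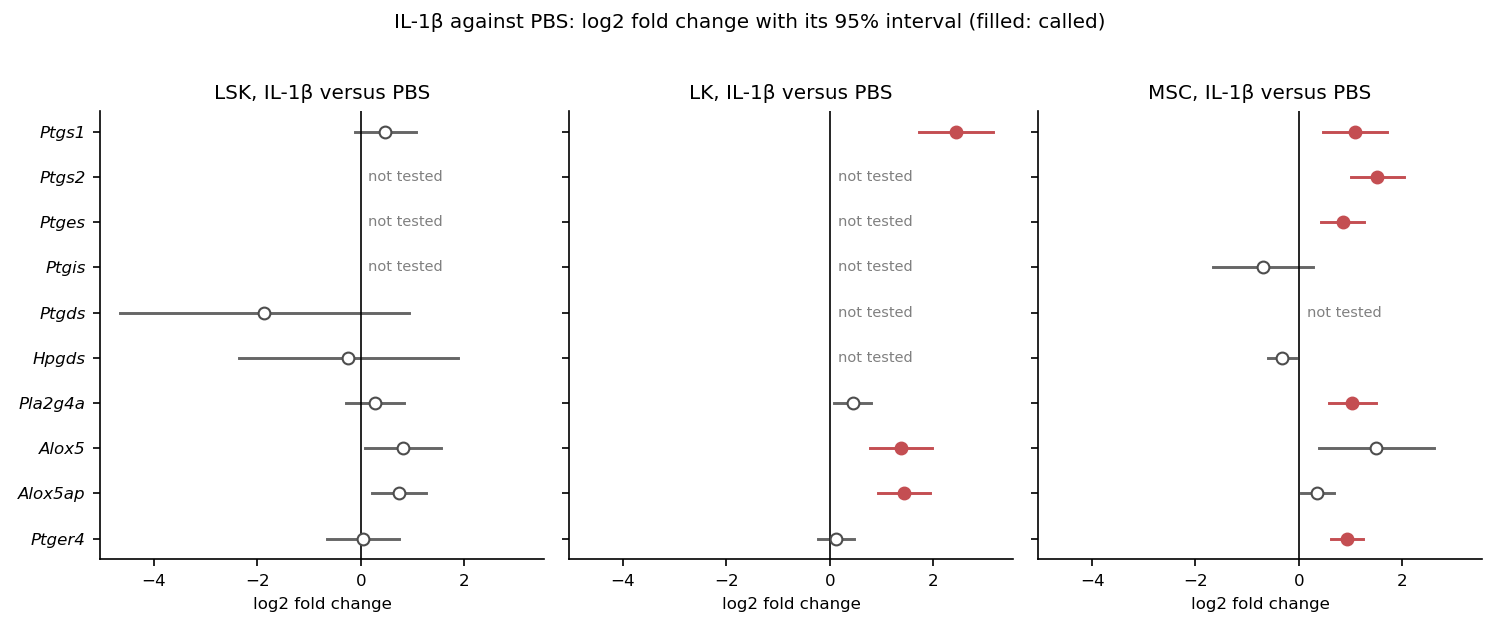
Log2 fold change of IL-1β against PBS with its 95% interval from edgeR for each gene tested in LSK, LK and MSC; filled red points passed both thresholds. In LK the 3 filled points are Ptgs1, Alox5 and Alox5ap, in MSC the 5 are Ptgs1, Ptgs2, Ptges, Pla2g4a and Ptger4, and in LSK there are 0.

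The remaining genes of the 2 pathways were counted from 6 lists with 62 genes in all, the 10 genes included. In MSC 41 of the 62 could be tested, 10 were called higher and 0 lower, with a median log2 fold change of 0.33, beside 7.14% and 4.31% of all genes called. In LK 35 could be tested, 9 were called higher and 1 lower (median 0.19), beside 6.77% and 2.57% of all genes. In LSK 38 could be tested, with 1 called higher and 1 lower (median 0.05), beside 0.32% and 0.312% of all genes. By list, the prostanoid receptors had 3 of 5 tested genes called higher in MSC, 1 of 6 in LK and 0 of 6 in LSK, and leukotriene and lipoxygenase synthesis had 0 of 7, 3 of 6 and 0 of 6. Prostaglandin synthesis had 3 of 11 in MSC, 1 of 7 in LK and 0 of 9 in LSK, all of them among the 10 genes.

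In MSC the largest increases outside the 10 genes were in Cysltr1, a cysteinyl leukotriene receptor, which gave 9.67 and 5.27 CPM under PBS and 33.8 and 33.3 CPM under IL-1β (log2 2.24, SE 0.27, edgeR adjusted p = 0.0095), in Pla2g7, the platelet-activating factor acetylhydrolase, with 98.4 and 81.1 CPM against 336 and 381 CPM (log2 2.0, SE 0.14), and in Ptgfr, the prostaglandin F2α receptor, with 1.33 and 1.13 CPM against 4.16 and 5.03 CPM (log2 1.91, SE 0.35). Ptger2, the EP2 receptor that shares its ligand with Ptger4 and was named after its values were seen, gave 9.50 and 10.9 CPM against 21.0 and 21.4 CPM (log2 1.04, SE 0.16, edgeR adjusted p = 0.0162). The other prostaglandin E2 synthases of the list, named after their values were seen, were not called and were lower in both IL-1β libraries: Ptges3 gave 137 and 136 CPM against 115 and 117 CPM (log2 -0.23, SE 0.10) and Ptges2 gave 20.2 and 20.8 CPM against 17.9 and 19.6 CPM (log2 -0.13, SE 0.14). The 11 prostaglandin synthesis genes tested in MSC had a median log2 fold change of -0.13. Without either IL-1β replicate the calls of Cysltr1, Ptgfr and Ptger2 were lost, and that of Pla2g7 without IL-1β replicate 1.

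In LK the largest increases were in Ptgir, the prostacyclin receptor, with 1.11, 1.34 and 1.65 CPM under PBS and 10.3 and 7.70 CPM under IL-1β (log2 2.72, SE 0.36, edgeR adjusted p = 0.0046), in Ltb4r1, the high-affinity receptor of leukotriene B4, with 10.5, 12.2 and 20.0 CPM against 68.2 and 43.0 CPM (log2 1.97, SE 0.31), and in Cyp4f18, which inactivates leukotriene B4, with 1.34 to 2.94 CPM against 6.76 and 5.45 CPM (log2 1.68, SE 0.45, edgeR adjusted p = 0.0493, called in 8 of 14 alternatives). Lta4h, the enzyme that makes leukotriene B4 and which was named after its values were seen, gave 206, 230 and 308 CPM under PBS and 480 and 458 CPM under IL-1β (log2 0.92, SE 0.16, edgeR adjusted p = 0.0135). Pla2g16, a phospholipase A of adipose and other tissues, fell by 0.95 on the log2 scale, from 27.3 to 33.5 CPM to 13.8 and 18.1 CPM. Each of these calls was lost without IL-1β replicate 1, which leaves 1 IL-1β library. Those of Lta4h, Cyp4f18 and Pla2g16 were also lost without IL-1β replicate 2 and when both sorted populations were fitted together. Without PBS replicate 2 those of Ltb4r1, Lta4h and Cyp4f18 were lost, and without PBS replicate 1 that of Pla2g16. The part of maturing cells in these values was not tested.

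In LSK, Ltb4r1 gave 4.24, 5.64 and 7.78 CPM under PBS and 29.4 and 33.5 CPM under IL-1β (log2 2.41, SE 0.38, edgeR adjusted p = 0.0262). Tbxa2r, the thromboxane receptor known from platelets, gave 22.2, 28.6 and 23.6 CPM under PBS and fell to 3.04 and 5.70 CPM under IL-1β (log2 -2.54, SE 0.43, edgeR adjusted p = 0.0352). Both calls were kept in 11 of 14 alternatives and lost with limma-voom and without either IL-1β replicate. Among the megakaryocyte and platelet markers 1 of 7 tested was called lower in LSK and 0 higher, with a median log2 fold change of -0.64; its part in the Tbxa2r value was not tested.

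Under PBS 16 of the 40 listed genes tested were called higher in LSK than in LK and 6 lower, beside 19.4% and 12.4% of all genes, so that the number called lower was near that of all genes. The largest excess in LSK was in Slco2a1, the prostaglandin transporter (log2 4.51, SE 1.28, 95% interval 1.66 to 7.36), Tbxa2r (3.98, SE 0.41) and Cysltr2, a cysteinyl leukotriene receptor (3.32, SE 0.43), and the largest deficit in Pla2g4c, a phospholipase A2 of the cytosolic group (-3.64, SE 0.42), Ephx2, the soluble epoxide hydrolase (-3.50, SE 0.51), and Pla2g12a, a secreted phospholipase A2 (-2.38, SE 0.20). Slco2a1 rested on few counts, at 0.310 to 3.67 CPM in LSK and at most 0.24 CPM in LK, and its call was lost without LK PBS replicate 2 and without LK PBS replicate 3 (edgeR adjusted p up to 0.0950). Like Ptgds, it passed the filter on low counts only through LSK PBS, so its direction is no support for the count called higher.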

How the data were processed

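RNA was depleted of ribosomal RNA and made into libraries with the NEBNext Ultra II RNA kit. The authors trimmed reads with fastp 0.20.0, aligned them with HISAT2 2.0.1 to GRCm38 (SAMtools 1.10) and deposited counts of read pairs per gene, made per the file headers with featureCounts 2.0.2 on Ensembl release 100 in reverse-stranded mode, without normalization; their methods also name Genomic Alignments. Replicates were not pooled. The MSC table's header names a further IL-1β library, not analysed here.

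Symbols came from GENCODE M21 on the same build (55141 of 55487 identifiers matched) and promoters from RefSeq, GRCm38.p6, for 8 of the 10 genes. The members and lists were chosen with earlier results of these data known. The test was edgeR's robust quasi-likelihood test (version 4.0.16 under R 4.3.3, two-sided) after TMM scaling and filterByExpr, with Benjamini-Hochberg adjustment over all genes tested, for IL-1β against PBS within each population, and over the 10 LSK and LK libraries together for LSK against LK and for the interaction. The SE is the log2 fold change divided by the square root of F. The study's own test was DESeq2, which is an alternative here. TPM used the gene lengths in the tables. Floors of 3 counts cover counting error only, since PCR copies are not independent molecules. The step was tested on simulated data with 200 changed genes, of which 70.5% of those tested were recovered in LSK, 86.2% in LK and 88.2% in MSC at a log2 change of 2. For LSK against LK 80.4% were recovered and for the interaction 64.6%. Unchanged genes called numbered 5 to 12 per comparison.

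LSK and LK libraries of the same number shared deviations from their group means (Pearson r 0.211, 0.128 and 0.472 across genes for PBS, 0.100 for IL-1β). Unlike numbers gave r of -0.381 to 0.162 for PBS, and LSK 2 with LK 1 (0.162) exceeded LSK 2 with LK 2. With 2 libraries a group, the IL-1β values 0.100 and -0.100 mirror each other. The values therefore do not settle the pairing of number 2. In the joint fit the pair was an alternative term, and the main tests left it out. Further alternatives were DESeq2 1.42.0, limma-voom (limma 3.58.1), other size factors, other filters, thinned counts and each library left out in turn. The genes named are the 10 members, the 3 largest called changes in each direction among the other listed genes, and the exceptions named as such. Exons of Alox5ap, Ptger4, Ptgs1 and Ptgis overlap antisense genes; the counting used strand.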

Additional observations from a re-analysis of the deposited data

How the results depend on the processing

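Over 37 log2 fold changes of the 10 genes, 499 of 541 alternative values kept their direction and their side of the threshold, 23 lost a call, 11 gained one and 8 changed sign; the causes were not tested. DESeq2 and limma-voom called Hpgds higher in LSK than in LK. DESeq2 called 1 gene higher in LSK and 1 gene, Ptgs1, lower in the interaction, against 0 and 0; without the filter on low counts the interaction also called 1. With single libraries left out, the genes called higher ran from 0 to 4 in LK, 0 to 6 in MSC, and 3 to 5 in LSK against LK, and were 0 throughout in LSK, and those called lower in the interaction from 0 to 1 (1 without LSK PBS replicate 2). Changes of sign were in small values. Hpgds in LSK (-0.24) was 0.16 with the replicate number as a block and -0.69 to 0.20 with single libraries left out, positive without PBS replicate 3 or IL-1β replicate 1. Ptger4 ran from -0.049 to 0.25 in LSK (negative without PBS replicate 2), from -0.16 to 0.25 in LSK against LK (negative without LSK PBS replicate 1) and, in the interaction, from -0.24 to 0.18 with single libraries left out (positive without LSK PBS replicate 1), 0.0090 without the filter and 0.16 with thinned counts. Pla2g4a in LK was called with the replicate number as a block (log2 0.59) and without PBS replicate 3 (log2 0.59). PBS and IL-1β libraries of 1 population share only a number (r of -0.102 to 0.126). In the pairing of LSK with LK the block lost Ptgds alone (log2 3.02). MSC groups share only number 2, so no paired analysis was possible because at least 2 shared numbers are needed there. Over all genes, calls varied widely: in LSK 42 were called higher and 41 lower, with 19 to 547 and 2 to 681 under the other settings; in LK 869 and 330, with 421 to 1462 and 68 to 869; in MSC 945 and 570, with 817 to 1439 and 572 to 915. Leaving out 1 library moved these counts further, to 3 to 280 and 0 to 200 in LSK, 61 to 1499 and 5 to 910 in LK and 38 to 2038 and 0 to 1781 in MSC. Depth limits Ptgs2, Ptges, Ptgis, Ptgds and Hpgds in the sorted cells most.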

Other observations

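Over the 14 libraries, the genes whose log2 CPM followed Ptgs1 most closely among 15393 genes were Lpgat1 (Pearson r = 0.957), Rgs19 (0.934) and Hgf (0.925). Those nearest to Alox5 were C430042M11Rik (0.979), Tuba4a (0.974) and Gzmb (0.971). Hpgds was followed most closely by Cd84 (0.995), Capg (0.991) and Sema4d (0.991). These values are descriptions: the points share libraries and fall into 3 populations.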
